A study of Mus musculus with 30 samples.

Results

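The 10 genes described here encode proteins that coat lipid droplets or release the fat stored in them: the perilipins Plin2, Plin4 and Plin5, the CIDE proteins Cidea, Cideb and Cidec, the lipases Pnpla2, Lipe and Mgll, and the lipase inhibitor G0s2. They were chosen by gene symbol, and each was measured by 1 of the 22206 tested probe sets of a mouse gene expression array. RNA came from whole liver of C57/BL6J offspring aged 16 weeks, on 30 arrays. The 4 groups were set by the diet of the males that gave the sperm and of those that gave the seminal plasma. NN had sperm and seminal plasma from males fed a normal protein diet, and LL had both from males fed a low protein diet. NL had sperm from normal protein males with seminal plasma from low protein males, and LN had the reverse. Dams were artificially inseminated and mated with a vasectomised male, and dams and offspring ate standard chow. NN, NL and LN each had 3 females and 4 males, and LL had 5 females and 4 males. The study took each male and female pair from a litter of its own, so arrays of opposite sex within a group can come from littermates. The labels do not tie arrays to litters, and tests over both sexes treated all animals as independent.

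Liver cells store surplus fatty acids as triglyceride in lipid droplets, which are covered by a coat of proteins. Perilipins on the droplet surface control access of lipases to the fat. CIDE proteins promote fusion and growth of droplets, and in liver Cideb also takes part in loading lipid onto very low density lipoproteins. Breakdown runs in steps: Pnpla2 (adipose triglyceride lipase, ATGL) removes the first fatty acid from triglyceride, Lipe (hormone-sensitive lipase) acts on diglyceride, and Mgll cleaves the remaining monoglyceride, while G0s2 binds and inhibits ATGL. Plin2 is the main perilipin of hepatocytes, Plin5 is found in tissues that burn fat, Plin4 is best known from adipose tissue and muscle, and Cidea and Cidec are best known from adipocytes and from fatty liver.

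Among the 10 genes, Plin5 with G0s2 and Plin2 with Mgll varied together most from animal to animal, and the 250 bases upstream of an annotated start of these 4 genes are shown for that reason (RefSeq, GRCm38.p6, written 5′ to 3′ along the gene). Capitals mark AGGTCA, the half-site that many nuclear receptors bind, and CACGTG, an E-box, on either strand.
Plin2, chr4:86670060-86670309, minus strand: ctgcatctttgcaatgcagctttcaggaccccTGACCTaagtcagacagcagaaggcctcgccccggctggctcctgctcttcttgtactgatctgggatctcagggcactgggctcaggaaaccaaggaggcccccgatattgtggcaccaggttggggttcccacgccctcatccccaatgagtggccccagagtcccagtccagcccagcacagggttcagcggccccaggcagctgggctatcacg
Mgll, chr6:88724162-88724411, plus strand: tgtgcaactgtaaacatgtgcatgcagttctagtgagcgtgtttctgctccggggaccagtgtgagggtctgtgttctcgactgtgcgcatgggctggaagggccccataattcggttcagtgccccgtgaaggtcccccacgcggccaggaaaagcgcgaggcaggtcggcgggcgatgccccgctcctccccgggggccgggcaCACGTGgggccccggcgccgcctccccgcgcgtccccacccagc
Plin5, chr17:56117549-56117798, minus strand: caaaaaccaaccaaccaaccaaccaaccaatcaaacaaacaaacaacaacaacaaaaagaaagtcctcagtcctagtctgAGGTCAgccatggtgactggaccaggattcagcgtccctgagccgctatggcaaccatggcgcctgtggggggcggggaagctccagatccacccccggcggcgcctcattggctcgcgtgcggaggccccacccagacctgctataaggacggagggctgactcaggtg
G0s2, chr1:193273189-193273438, minus strand: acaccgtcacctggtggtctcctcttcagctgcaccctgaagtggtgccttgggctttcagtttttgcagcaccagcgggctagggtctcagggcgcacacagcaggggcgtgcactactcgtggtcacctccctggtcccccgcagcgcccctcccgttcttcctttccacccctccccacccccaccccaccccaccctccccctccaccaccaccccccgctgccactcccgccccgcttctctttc
AGGTCA occurred on either strand in 14.0% of the 32851 upstream windows of the RefSeq table and CACGTG in 6.02%. Plin2 held AGGTCA from position -218 on the reverse strand, Plin5 held it from position -170, and Mgll held CACGTG from position -44, counting back from the annotated start. The G0s2 window held neither. Mgll and Plin5 each have another annotated start close by, and those windows held neither motif. The annotated Plin2 gene runs to position 86670217, so part of its printed window lies inside the gene. These matches describe letters only. Plin4 and Plin5 lie next to each other on chromosome 17.

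Several arrays stood apart before any group was compared. On NL replicate 6, labelled male, the SD of the log2 signals was 1.65, whereas every other array lay between 2.15 and 2.30. Its hybridisation controls averaged 7.61, and those of the other 29 arrays 10.14 to 10.95. Its signals of the Y-linked genes Kdm5d, Eif2s3y and Uty were 3.52, 3.24 and 2.41, where the other males had at least 5.33, 7.76 and 5.63. In LL replicate 1, labelled female, the same 3 genes were between the sexes, at 4.43, 6.56 and 4.68. The mean of 6 skeletal muscle markers was 9.50 in NN replicate 3, 7.52 in LL replicate 2 and 6.53 in LN replicate 1, all females, and 4.05 to 4.54 on the other 26 arrays without NL replicate 6. Hepatocyte markers were high on all 29 of those arrays (mean of 8 genes 12.61 to 12.81) and 11.58 on NL replicate 6. Results are therefore given for all 30 arrays, for 29 arrays without NL replicate 6, and, where it changed a value, for 26 arrays without the 3 carrying muscle transcripts as well. The last set was chosen after seeing the data.

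On NL replicate 6 the members did not keep their usual levels. Plin2 was 8.38 there and 9.77 to 11.12 on the other 29 arrays. Pnpla2 was 6.83 there and 8.98 to 10.10 elsewhere. Cideb was 9.30 there and 10.98 to 11.95 elsewhere. Together with Lipe (5.09) and Mgll (6.40), 5 of 10 members were below every other array, and Cidea at 5.11 was above every other array. Over all probe sets 29.5% were below and 43.5% above the other 29 arrays, so displacement as such was not particular to the members. The median difference from the other NL males was -0.93 for the members and 0.36 for all probe sets, which were not matched for signal level. The 5 members below every other array averaged 7.02 to 11.63 in the other NL males, and Cidea averaged 3.88. The median signal of all probe sets was 5.42 to 5.57 on the other 29 arrays. The hepatocyte marker mean was also lower on NL replicate 6. The part of signal level in this difference was not tested. Plin4, Plin5, Cidec and G0s2 lay inside the range of the other arrays.

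**Figure D1:**
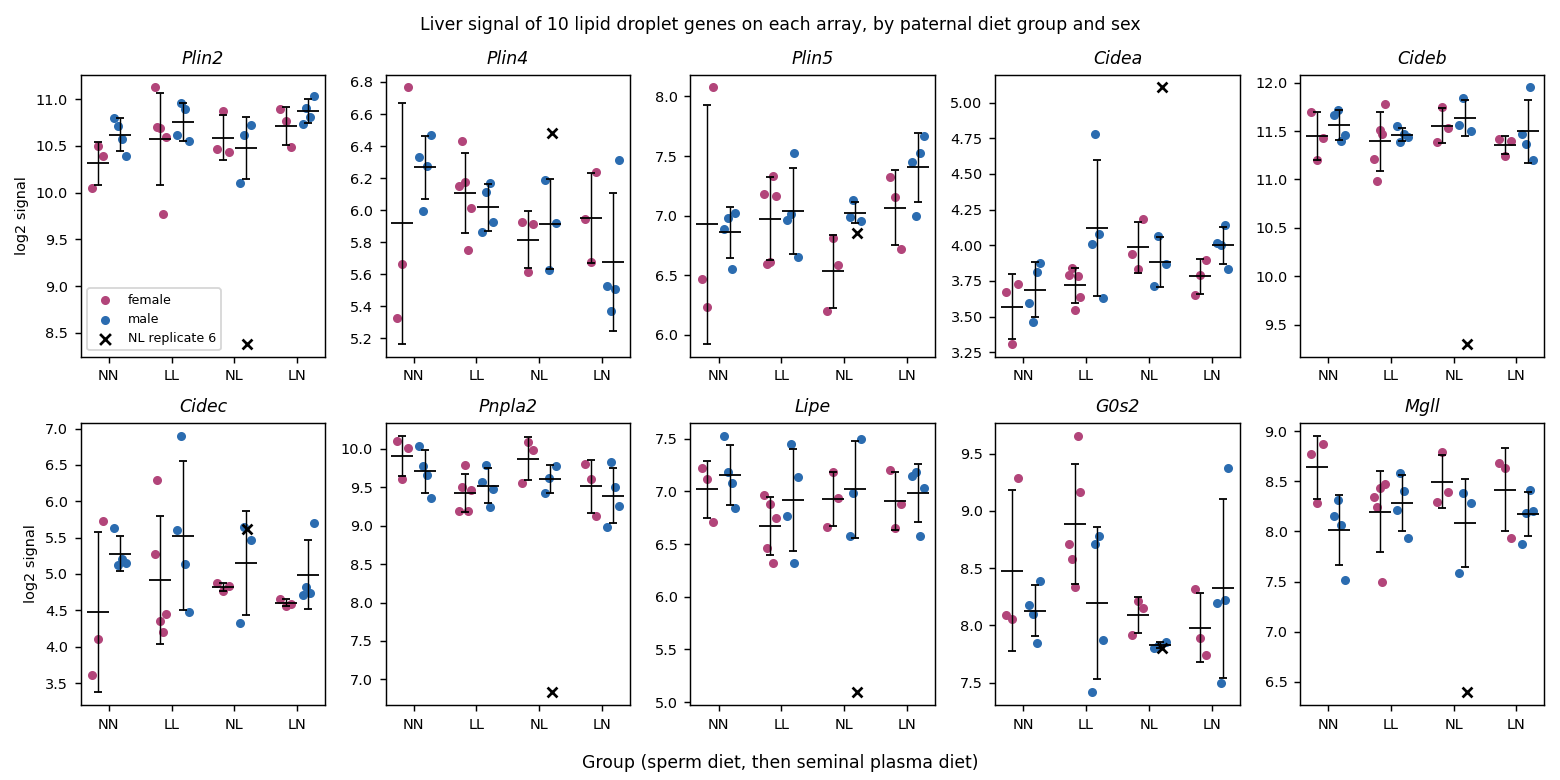
Log2 signal of each member (1 panel a gene, y axis) by diet group (x axis) and sex; each point is an array, horizontal ticks and bars are means ± SD without NL replicate 6, which is drawn as a cross. The 4 diet groups, sexes together, overlap in every panel, and the cross lies below all other points for Plin2, Cideb, Pnpla2, Lipe and Mgll and above them for Cidea.

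No member passed an adjusted p of 0.05 (limma, adjusted over 22206 probe sets) in any of the 17 comparisons, with 30 or with 29 arrays. The share of all probe sets that passed it was 0 in most comparisons. It was 0.0135% for NL against NN, 0.0135% for the interaction of sperm and seminal plasma diet and 2.51% for sex with 30 arrays. With 29 arrays it was 0.0540% for NL against NN, 0.0405% for LN against NN, 0.0360% for LN against NN in males, 0.00450% for sperm diet, 0.189% for the interaction and 5.65% for sex. Each member is therefore described by its levels and the 95% interval of each difference. In whole liver, fewer cells of a type and less RNA per cell cannot be told apart.

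Some members were near the background of the array. The 95th percentile of the negative control probe sets was 6.35 to 7.17 on the 29 arrays. Plin4 and Cidea were below that of their own array on 29 of 29 arrays, Cidec on 28, Plin5 on 12 and Lipe on 11, and the other 5 members on 0. Cidea was also below the median of the controls on 16 arrays and Cidec on 1. Differences of Plin4, Cidea and Cidec are therefore differences of signals that were not well above background.

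Plin2, the coat protein of hepatocyte droplets, had its highest group mean in LN. Its lowest, median and highest log2 signals were 10.05, 10.50 and 10.80 in NN, 9.77, 10.69 and 11.12 in LL, 10.10, 10.54 and 10.87 in NL without replicate 6, and 10.49, 10.80 and 11.03 in LN. The groups overlapped, but 4 of 7 LN arrays were above every NN array. LN exceeded NN by 0.32 ± 0.15 (SE, 29 arrays, 95% interval 0.01 to 0.62, adjusted p = 0.41; exact permutation test, two-sided, p = 0.0146). With 30 arrays the interval was -0.18 to 0.81 (adjusted p = 1.00), with 26 arrays the difference was 0.29 (-0.06 to 0.63, adjusted p = 0.51), and the interval left out 0 in 4 of 42 settings. LL exceeded NN by 0.17 (95% interval -0.12 to 0.45), and NL differed from NN by 0.05 (-0.27 to 0.36). These comparisons share the NN arrays.

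Averaged over seminal plasma and sex, offspring of low protein sperm (LL and LN) had a higher mean Plin2 signal than offspring of normal protein sperm (NN and NL). The difference was 0.36 ± 0.17 on the log2 scale with 30 arrays and 0.23 ± 0.10 with 29 (95% interval 0.02 to 0.44, adjusted p = 0.63; permutation test within strata of seminal plasma diet and sex, two-sided, p = 0.0382). With the muscle arrays out as well it was 0.21 (-0.03 to 0.45, adjusted p = 0.70). Leaving out 1 of the 30 arrays at a time, it passed an unadjusted p of 0.05 in 20 of 30 fits. It did not pass without LL replicate 1, the array with the highest Plin2 signal of all (11.12). Without both that array and NL replicate 6 it did not pass either. The direct comparison of the mismatched groups depended on the weak array: NL was below LN by 0.58 with 30 arrays (difference -0.58, 95% interval -1.07 to -0.08, adjusted p = 0.34) and the difference was -0.27 (-0.59 to 0.05) with 29. In NL males the difference from NN was -0.66 with the weak array and -0.14 without it.

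Plin5, which places droplets beside mitochondria, had its highest group mean in LN as well. The lowest, median and highest signals were 6.23, 6.89 and 8.08 in NN, 6.59, 7.01 and 7.52 in LL, 6.20, 6.88 and 7.13 in NL without replicate 6, and 6.72, 7.32 and 7.66 in LN. The NN maximum was NN replicate 3, the array with the most muscle transcripts, and the next NN array was at 7.02. LN exceeded NN by 0.37 ± 0.21 (29 arrays, 95% interval -0.05 to 0.79, adjusted p = 0.50), and NL was lower than LN by a difference of -0.48 ± 0.21 (-0.92 to -0.05, adjusted p = 0.68; exact permutation test, two-sided, p = 0.0239).

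Without the 3 muscle arrays the Plin5 differences of LL and LN from NN in both sexes together were larger. The arrays left out were the highest NN array (8.08), the lowest LL array (6.59) and LN replicate 1 (7.32). LN exceeded NN by 0.56 ± 0.18 (26 arrays, 95% interval 0.19 to 0.93, adjusted p = 0.22) and LL exceeded NN by 0.36 ± 0.17 (0.02 to 0.71, adjusted p = 0.64). The sperm diet effect was 0.42 ± 0.11 (0.20 to 0.64, adjusted p = 0.28), against 0.29 ± 0.14 (-0.01 to 0.58) with 29 arrays. NL differed from LN by -0.47 (-0.84 to -0.10, adjusted p = 0.67), about as with 29 arrays, and from NN by 0.09 (-0.28 to 0.46). In LN males the difference from NN was 0.55 with 29 and with 26 arrays. The direction of the sperm diet effect was the same in all 3 sets of arrays, and it passed no adjusted threshold in any of them.

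Plin4, a perilipin of adipocytes and muscle, was lowest in LN males. The 4 LN males were at 5.52, 5.37, 5.50 and 6.32 and the 4 NN males at 6.33, 5.99, 6.28 and 6.47. LN replicate 7, at 6.32, was the only LN male inside the NN range. The difference in males was -0.59 ± 0.23 (29 arrays, 95% interval -1.05 to -0.13, adjusted p = 0.29; exact permutation test, two-sided, p = 0.0857), past the fold of 1.5, and it was also called with 30 (adjusted p = 1.00) and with 26 arrays. All of these signals were below the 95th percentile of the negative controls of their array. Leaving out 1 of the 30 arrays at a time gave -0.80 to -0.49, and the call was lost without NN replicate 4, NN replicate 7, LN replicate 4, LN replicate 5 or LN replicate 6. In females the difference was 0.03 (-0.50 to 0.57): the 3 LN females were at 5.95, 5.68 and 6.24 and the 3 NN females at 5.33, 5.66 and 6.77. The highest of these, NN replicate 3, was the muscle array.

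Cidea, a CIDE protein of brown fat, had a lower mean in NN than in the other 3 groups, with overlap. Its lowest, median and highest signals were 3.31, 3.68 and 3.88 in NN, 3.55, 3.79 and 4.78 in LL, 3.71, 3.90 and 4.19 in NL without replicate 6, and 3.65, 3.90 and 4.14 in LN. These values are at background: the median of the negative controls was 3.39 to 4.16 on the same 29 arrays, and Cidea was below it on 16. The differences that follow are therefore descriptions of background signals, with no level of Cidea behind them. NL exceeded NN by 0.46 ± 0.18 with 30 arrays (95% interval 0.11 to 0.82, adjusted p = 0.15) and by 0.30 ± 0.14 with 29 (0.01 to 0.58, adjusted p = 0.34). LL exceeded NN by 0.26 (0.00 to 0.52, adjusted p = 0.59) and LN exceeded NN by 0.27 (-0.01 to 0.54, adjusted p = 0.45). In females, the 3 NL arrays (3.94, 3.84 and 4.19) lay above the 3 NN arrays (3.68, 3.31 and 3.73). No share of all probe sets that separate in this way is given, so it is not read as a result about Cidea.

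Cideb, the CIDE protein of hepatocytes, varied least. It ranged from 10.98 to 11.95 over 29 arrays, with a residual SD within diet and sex of 0.22, and the 3 differences from NN were -0.09 (95% interval -0.31 to 0.14) in LL, 0.08 (-0.16 to 0.33) in NL and -0.08 (-0.31 to 0.16) in LN. The intervals leave out differences larger than 0.33 in either direction with 29 arrays. With NL replicate 6 the NL interval widened to -0.73 to 0.24.

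Cidec, the CIDE protein that builds the large droplets of fat cells, varied most. It ranged from 3.61 to 6.90 over 29 arrays, its residual SD was 0.71, and 99.3% of all tested probe sets had a smaller one. The median residual SD of all probe sets was 0.24. The lowest array was NN replicate 1 and the highest LL replicate 7. LL differed from NN by 0.25 (95% interval -0.42 to 0.92), NL by 0.05 (-0.69 to 0.79) and LN by -0.11 (-0.82 to 0.60). At this spread, the data do not tell apart the differences within those intervals.

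Pnpla2, the lipase of the first step, had lower means in LL and LN, the groups with low protein sperm, than in NN and, once the weak array was left out, NL. Its lowest, median and highest signals were 9.37, 9.78 and 10.10 in NN, 9.19, 9.48 and 9.79 in LL, 9.42, 9.70 and 10.09 in NL without replicate 6, and 8.98, 9.50 and 9.83 in LN. LL and LN each had 3 arrays below every NN array, and neither had one above the NN maximum. LL differed from NN by -0.32 ± 0.13 (95% interval -0.60 to -0.05, adjusted p = 0.52; exact permutation test, two-sided, p = 0.0237) and LN by -0.35 ± 0.14 (-0.64 to -0.06, adjusted p = 0.33; exact permutation test, two-sided, p = 0.0519). NL differed from NN by -0.05 (-0.35 to 0.25).

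The sperm diet effect on Pnpla2 was -0.31 ± 0.10 with 29 arrays (95% interval -0.52 to -0.11, adjusted p = 0.51; permutation test within strata, two-sided, p = 0.00546). It was -0.34 ± 0.11 with 26 arrays (-0.57 to -0.11, adjusted p = 0.45) and -0.14 ± 0.20 with 30 (-0.54 to 0.27, adjusted p = 0.90). The seminal plasma effect with 29 arrays was -0.02 (-0.23 to 0.18). The sperm effect passed an unadjusted p of 0.05 in 4 of 40 settings: the 3 that left out NL replicate 6, the array whose Pnpla2 signal was the lowest of all 30, and, with all 30 arrays, the fit with array quality weights (-0.27, adjusted p = 0.44). In NL males, Pnpla2 was called lower than NN with that array (difference -0.80) and was not called without it (-0.10). With all 30 arrays less 1, that call and the one of Plin2 were also lost without NN replicate 4, NN replicate 5 or NN replicate 6.

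Lipe, the diglyceride lipase, had its lowest mean in LL. Its lowest, median and highest signals were 6.71, 7.11 and 7.53 in NN, 6.32, 6.77 and 7.45 in LL, 6.58, 6.96 and 7.50 in NL without replicate 6, and 6.58, 7.03 and 7.20 in LN. LL differed from NN by -0.31 ± 0.15 (29 arrays, 95% interval -0.63 to just below 0, adjusted p = 0.59; exact permutation test, two-sided, p = 0.0836). With 30 arrays the interval was -0.77 to 0.14, and it left out 0 in 3 of 42 settings. NL and LN differed by -0.12 (-0.47 to 0.22) and -0.14 (-0.48 to 0.19). The groups overlapped throughout.

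G0s2, the inhibitor of ATGL, followed no single diet. The 5 LL females were at 8.71, 8.58, 8.33, 9.66 and 9.16, the 3 NN females at 8.09, 8.05 and 9.29, the 3 NL females at 7.92, 8.21 and 8.15, and the 3 LN females at 8.32, 7.89 and 7.74. The lowest LL female (8.33) was above the highest NL female (8.21) and barely above the highest LN female (8.32). The LL females include LL replicate 1, whose Y-linked signals were between the sexes. No share of all probe sets that separate in this way is given, so it is not read as a result about G0s2. The 4 NL males, replicate 6 included, were close together, at 7.80, 7.82, 7.80 and 7.85, while the LN males spread from 7.50 to 9.38 and the LL males from 7.42 to 8.78. G0s2 was the 1 member called in the interaction of sperm and seminal plasma diet: the effect of low protein sperm was larger by 0.73 ± 0.35 with low protein than with normal protein seminal plasma (29 arrays, 95% interval 0.02 to 1.45, adjusted p = 0.36). Leaving out 1 of the 30 arrays at a time gave 0.53 to 0.91, lowest without NN replicate 3. The call was lost in 15 of those 30 fits and with 26 arrays (0.65, adjusted p = 0.47). LL females exceeded NN females by 0.41 ± 0.34 with 29 arrays (-0.28 to 1.10, adjusted p = 0.68). With 26 arrays, which left 2 NN females and dropped the one at 9.29, the difference was 0.89 ± 0.37 (0.12 to 1.66, adjusted p = 0.46).

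Mgll, the monoglyceride lipase, did not separate by diet in both sexes together. The differences from NN with 29 arrays were -0.05 (95% interval -0.41 to 0.32) in LL, 0.01 (-0.39 to 0.41) in NL and -0.01 (-0.39 to 0.38) in LN. The change from NN to LL was then compared between the sexes. The 3 NN females (8.77, 8.28 and 8.87) were mostly above the 4 NN males (8.15, 8.31, 8.07 and 7.51), and the 5 LL females (8.35, 8.25, 8.43, 7.50 and 8.47) overlapped the 4 LL males (8.21, 8.58, 8.41 and 7.93). The change was higher in males than in females by 0.72 ± 0.32 with 29 arrays (0.05 to 1.38, adjusted p = 0.75). The interval was -0.18 to 1.61 with 30 arrays (adjusted p = 1.00), the value was 0.61 (-0.13 to 1.36, adjusted p = 0.83) with 26, and the unadjusted threshold of 0.05 was passed in 3 of 41 settings.

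**Figure D2:**
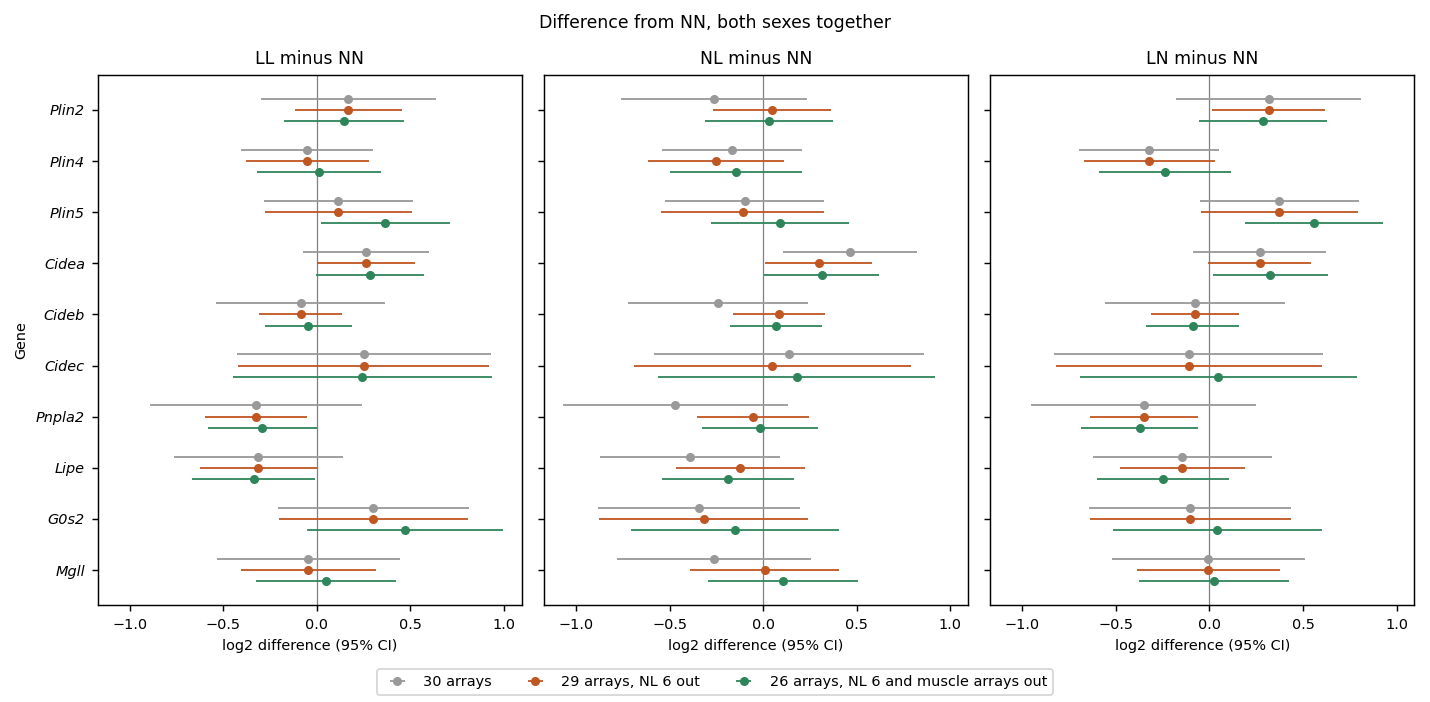
Log2 differences of LL, NL and LN from NN (1 panel each, x axis) for the 10 members (y axis), with points for the limma estimate and bars for the 95% interval, from 30, 29 and 26 arrays. Leaving out NL replicate 6 moved Pnpla2 in NL from -0.47 to -0.05, and leaving out the muscle arrays moved Plin5 in LN from 0.37 to 0.56.

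Counted over the set at an unadjusted p of 0.05, few members passed in any diet comparison. With 30 arrays 0 of 10 did so in LL against NN (3.39% of all probe sets), 1 in NL against NN (23.8%), 0 in LN against NN (4.66%) and 2 in NL against LN (14.6%). With 29 arrays the counts were 3 (8.43%; Cidea higher, Pnpla2 and Lipe lower), 1 (14.1%; Cidea higher), 2 (11.6%; Plin2 higher, Pnpla2 lower) and 1 (6.89%; Plin5 lower). With 26 arrays LL against NN had 3 members (7.50%; Plin5 higher, Pnpla2 and Lipe lower), NL against NN had 1 (13.0%; Cidea) and LN against NN had 3 (12.1%; Plin5 and Cidea higher, Pnpla2 lower), while NL against LN had 2 (6.97%; Plin5 lower, Pnpla2 higher by 0.36, 0.05 to 0.67). Cidea in these counts was at background. The median difference of the 10 members with 29 arrays was 0.03 in LL, -0.02 in NL and -0.09 in LN, and that of all probe sets was 0.01, 0.01 and 0.02.

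Split into sperm and seminal plasma, 2 members passed for sperm diet with 30 arrays (Plin2 and Plin5; 4.74% of all probe sets), 2 with 29 (Plin2 and Pnpla2; 7.80%) and 2 with 26 (Plin5 and Pnpla2; 7.67%). For seminal plasma diet the count was 1 with 30 arrays (Cidea, higher by 0.24 ± 0.12 with low protein plasma; 9.84%) and 0 with 29 (10.0%). For the interaction it was 1 with 30 (G0s2; 10.6%), 1 with 29 (G0s2; 13.3%) and 0 with 26 (11.9%).

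Within a sex, a call also required a fold over 1.5. In females 0 members were called in LL, NL and LN against NN with 30 arrays (1.43%, 1.59% and 1.24% of all probe sets), where 0 passed an unadjusted p of 0.05 in limma, and 0 were called with 29 (1.73%, 2.11% and 1.79%), where Pnpla2 in LL and Cidea in NL passed the p alone. With 26 arrays, which left 2 NN females, 2 members were called in LL females (Plin5 and G0s2, both higher; 3.03%) and 1 in NL females (Cidec, higher; 2.37%). In males the counts with 30 arrays were 0 in LL (0.518%), 2 in NL (Plin2 and Pnpla2, both lower; 20.9%) and 1 in LN (Plin4, lower; 1.49%). With 29 arrays they were 0 (0.572%), 0 (2.06%) and 1 (Plin4; 1.93%), and with 26 arrays Plin4 in LN males stayed the 1 call (1.95%).

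The sex difference of the diet effect was called for no member with 30 arrays in LL, NL or LN (1.88%, 5.85% and 2.40% of all probe sets). With 29 arrays Mgll was called in LL (3.26%) and none in NL (3.16%) or LN (4.46%). With 26 arrays Plin4 was called in all 3 (4.36%, 3.00% and 3.55%). Its change from NN was lower in males than in females by -0.78 ± 0.29 in LL, -0.68 ± 0.31 in NL and -1.05 ± 0.31 in LN, with adjusted p of 0.72, 1.00 and 1.00. With 29 arrays the same differences were -0.44 (95% interval -1.10 to 0.23), -0.25 (-0.99 to 0.48) and -0.62 (-1.33 to 0.09). Each set of 3 values shares its NN arrays, which held 3 females with 29 arrays and 2 with 26.

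For sex itself 2 members passed with 30 arrays (13.1% of all probe sets) and 2 with 29 (17.3%), Cidec and Mgll, in opposite directions. Cidec was higher in males by 0.53 ± 0.24 averaged over diets (29 arrays, 95% interval 0.05 to 1.02, adjusted p = 0.23; permutation test within diet groups, two-sided, p = 0.0319). The lowest, median and highest Cidec signals were 3.61, 4.62 and 6.29 in 14 females and 4.33, 5.15 and 6.90 in 15 males. The 2 highest females, at 6.29 and 5.72, were LL replicate 2 and NN replicate 3, which carried muscle transcripts. Without the muscle arrays the Cidec difference was 0.78 ± 0.20 (0.36 to 1.20), and the adjusted p was 0.0211. At that threshold 5.05% of all probe sets passed, and Cidec was the only member among them. It did not pass with 29 or 30 arrays, and 28 of its 29 signals were below the 95th percentile of the negative controls of their array.

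Mgll had the opposite sign, with a difference of males from females of -0.30 ± 0.12 (29 arrays, 95% interval -0.55 to -0.05, adjusted p = 0.16; permutation test within diet groups, two-sided, p = 0.0331). Its lowest, median and highest signals were 7.50, 8.41 and 8.87 in females and 7.51, 8.21 and 8.58 in males. With 26 arrays it was -0.24 (adjusted p = 0.39). The counts with 26 arrays were 2 members, Cidec and Plin5 (16.9%), and Plin5 was higher in males by 0.36 ± 0.11 (0.14 to 0.58, adjusted p = 0.0529). Plin5 did not pass an unadjusted p of 0.05 for sex with 29 or 30 arrays. Its sex difference ran from -0.24 to 0.36 over 40 settings, and the 26-array value was the highest. The 26 arrays leave out NN replicate 3, the female with the highest Plin5 signal (8.08). Markers of other liver cells also differed between the sexes: with 29 arrays 5 of 6 stellate cell markers, 4 of 6 endothelial markers and 2 of 6 Kupffer cell markers were lower in males at an unadjusted p of 0.05, and 0 of 8 hepatocyte markers differed. Their part in the differences of Cidec and Mgll was not tested.

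Signals of 4 members were compared with muscle transcripts. On NN replicate 3, the array with the highest muscle marker mean, Plin4 (6.77) and Plin5 (8.08) were the highest of all 30 arrays, Cidec (5.72) was the highest NN array and G0s2 (9.29) was the third highest of all. LL replicate 2, next in muscle marker mean, was the highest LL array for Plin4 (6.43) but the lowest for Plin5 (6.59). Its Cidec (6.29) and G0s2 (8.58) lay within the range of the other LL arrays. LN replicate 1 lay within the range of the other LN arrays for all 4 genes. Across residuals from the diet and sex means of 29 arrays, the muscle marker mean had a Pearson's r of 0.65 with Plin4, 0.63 with Cidec, 0.52 with Plin5 and 0.33 with G0s2. Among the 26 arrays without them it was 0.24, 0.07, 0.06 and 0.28. Of the 6 markers, Ckm reached at most 6.70 on any of the 29 arrays and the other 5 reached 8.42 to 11.02. Adipocyte markers, of which 6 of 8 were measured, had means of 4.03 to 4.83 in NN, 4.06 to 5.42 in LL, 4.08 to 4.72 in NL without replicate 6 and 4.02 to 4.31 in LN, with r of 0.56 with Cidec over 29 arrays and 0.04 over 26. The r was 0.40 and -0.15 for Plin4, 0.24 and 0.36 for Plin5 and 0.23 and 0.40 for G0s2. Adiponectin (Adipoq) was 2.25 to 5.82. The part of these transcripts in the diet differences of the 4 genes was not tested beyond the values given with 26 arrays.

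**Figure D3:**
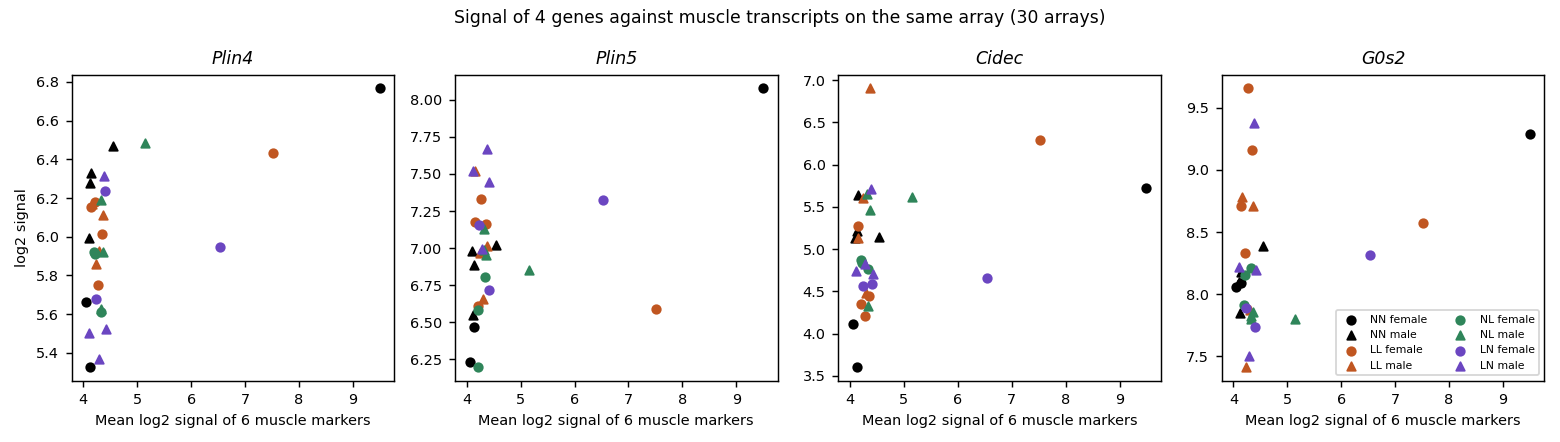
Log2 signal of Plin4, Plin5, Cidec and G0s2 (y axis) against the mean log2 signal of 6 muscle markers on the same array (x axis) for 30 arrays, coloured by diet group, circles females and triangles males. The 3 arrays at 6.53, 7.52 and 9.50 are females, and the one at 9.50 is the highest for Plin4 and Plin5.

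Animals of the same diet and sex differed in a shared way for some pairs of members. The correlations that follow are across residuals from the 8 diet and sex means of 29 arrays, which share a platform and a normalization, and are given as descriptions. Plin5 and G0s2 had the closest relation, with Pearson's r of 0.76 and Spearman's rho of 0.83. It was 0.88 in 14 females, 0.72 in 15 males, 0.74 without the 2 arrays farthest from the median of Plin5 and 0.71 with 26 arrays. Plin5 shields droplets and G0s2 restrains ATGL. The r of Pnpla2, which encodes ATGL, was -0.01 with Plin5 and -0.16 with G0s2.

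The other pairs joined Mgll to a coat and to a lipase. Plin2 and Mgll had r of 0.73 and rho of 0.62, and 0.69 without the 2 arrays farthest in Plin2. Pnpla2 and Mgll had r of 0.68 and rho of 0.62. The lowest array for both Plin2 (9.77) and Mgll (7.50) among the 29 was LL replicate 4, a female that also had the highest G0s2 (9.66). Lipe had r of 0.48 with Plin2 and 0.48 with Pnpla2. Plin4 and Cidec had r of 0.55 with 29 arrays and 0.25 with 26. Cideb went against Plin4 (r = -0.43) and Cidec (r = -0.40).

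Including NL replicate 6 changed many of these values. The r of Cideb with Pnpla2 was 0.85 with 30 arrays and 0.28 with 29. That of Plin2 with Pnpla2 was 0.80 against 0.33, and that of Plin2 with Cideb 0.67 against -0.18. Plin5 with G0s2 was 0.76 in both.

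**Figure D4:**
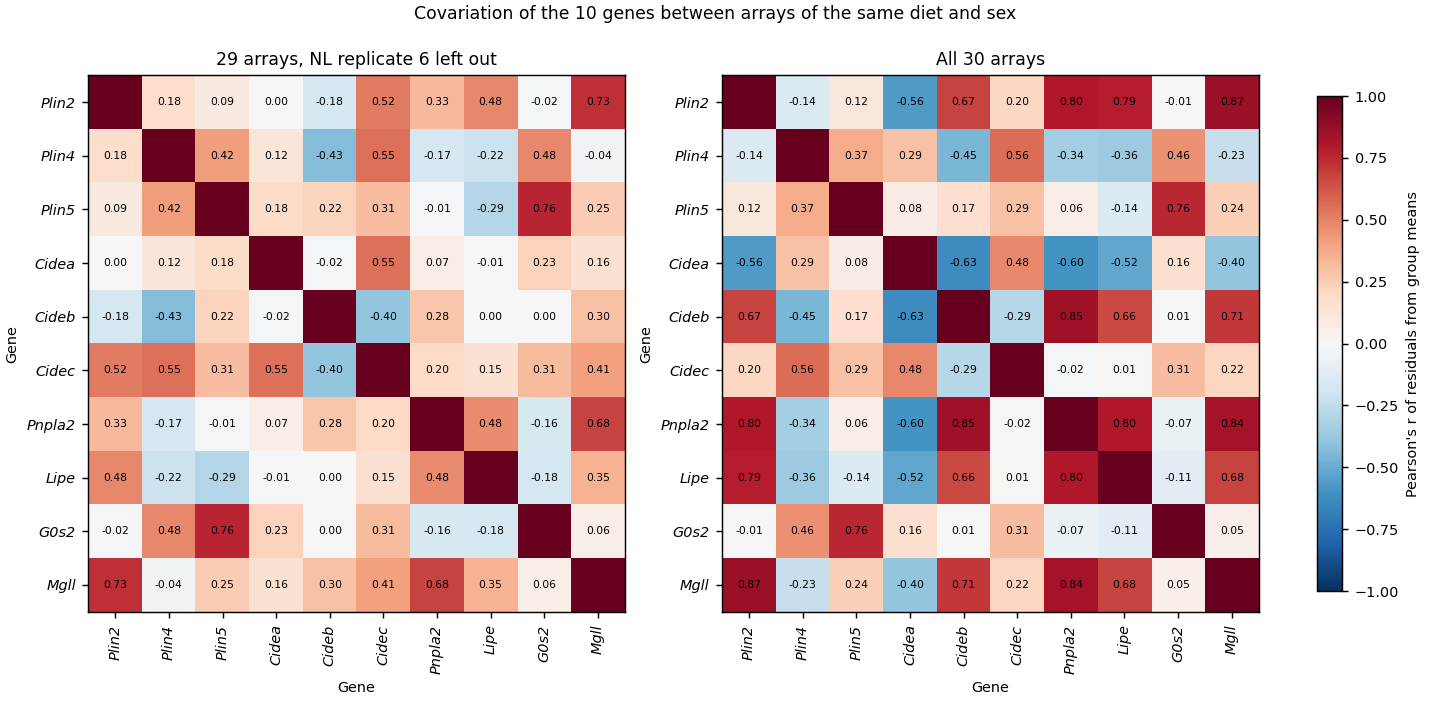
Pearson's r between members (both axes) of residuals from the means of the 8 diet and sex groups, with 29 arrays (left) and all 30 (right); colour runs from -1 to 1. Plin5 with G0s2 is 0.76 in both panels, whereas Cideb with Pnpla2 is 0.28 on the left and 0.85 on the right.

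**Figure D5:**
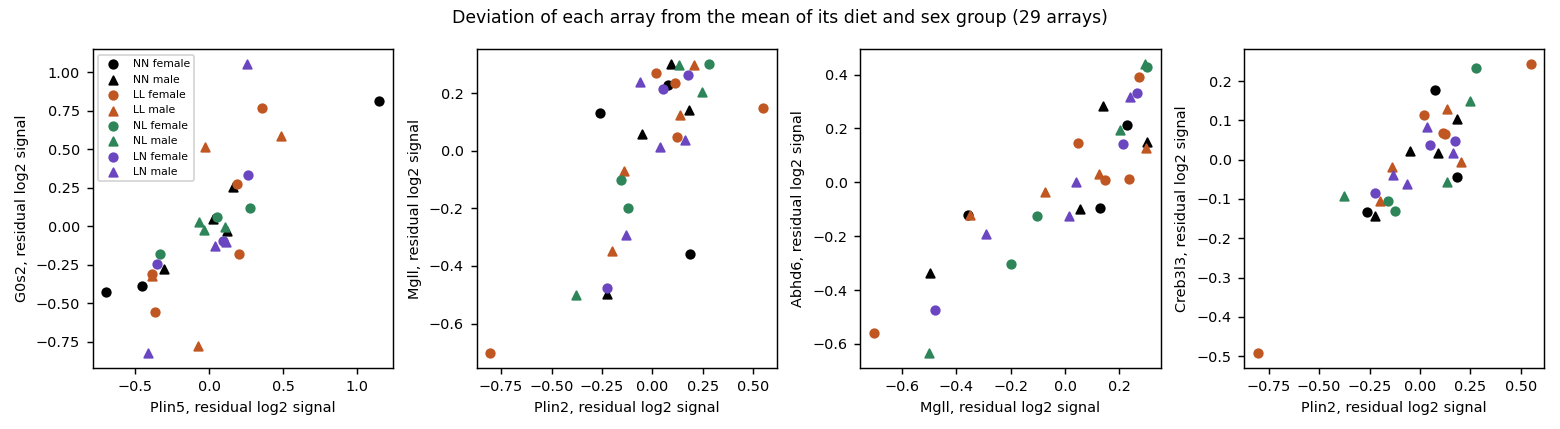
Residual log2 signals of 29 arrays (deviation from the mean of the array's diet and sex group, both axes) for 4 pairs of genes, coloured by diet group, circles females and triangles males. Points rise together in each panel, with r of 0.76, 0.73, 0.89 and 0.88 from left to right, and the lowest point of the Plin2 panels is LL replicate 4.

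For each member the 3 genes with the most similar residuals were taken from 19571 probe sets with 1 gene symbol. Mgll was closest to Abhd6, itself a monoglyceride lipase, with r of 0.89, then to Paqr7 (0.87) and to Nceh1, a cholesterol ester hydrolase (0.85). Plin2 was closest to Creb3l3, a liver transcription factor cut from the endoplasmic reticulum membrane (0.88), then to Casp8 (0.86) and Vnn1, a pantetheinase (0.84). Without the 2 arrays farthest in Plin2 the Creb3l3 value was 0.75. Pnpla2 was closest to P2ry2 (0.82), Tbc1d20 (0.78) and Scamp1 (0.78), and Lipe to Pklr, the pyruvate kinase of liver (0.83), Lpcat3, which remodels phosphatidylcholine (0.78), and Mpzl2 (0.76). Without the 2 arrays farthest in the member, the values of Mgll were 0.78 to 0.85, those of Pnpla2 0.72 to 0.78 and those of Lipe 0.68 to 0.77.

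The remaining members had these neighbours. Cideb was closest to Gm5617 (0.92), Wdr83os (0.89) and Tcn2, a cobalamin carrier (0.89). Cidea, at background, was closest to Abcg1, a sterol transporter (0.72), Dhps (0.69) and Ran (0.67), which were 0.64, 0.41 and 0.43 without the 2 arrays farthest in Cidea. G0s2 was closest to Ap3m2 (0.81), Arl9 (0.78) and C1qtnf12 (0.76). Plin5 was closest to Slc35b1 (0.81), 2700062C07Rik (0.81) and Nop2 (0.80), which were 0.60, 0.71 and 0.63 with 26 arrays. Plin4 was closest to Filip1l (0.80), Rilpl1 (0.77) and Tnfrsf12a (0.74), and Cidec to Filip1l (0.77), Slc25a4, the adenine nucleotide carrier of muscle and heart (0.74), and Dtna (0.72). Those of Plin4 and Cidec were 0.51 to 0.68 with 26 arrays. Plin4 and Cidec thus shared Filip1l as their closest gene.

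Other genes of droplet metabolism were counted from lists (29 arrays, unadjusted p of 0.05 with a fold over 1.5). Of 10 other coat and droplet proteins measured and 10 genes of droplet formation and lipoprotein assembly, none was called in a diet comparison. Of 15 other lipases, Pnpla3, a lipase and acyltransferase of liver droplets, was called higher than NN in LL females (0.61 ± 0.19, adjusted p = 0.26), NL females (0.79 ± 0.21, adjusted p = 0.36) and LN females (0.60 ± 0.21, adjusted p = 0.51), which share the 3 NN females. Ces3b, a carboxylesterase, was called higher in NL females (0.66 ± 0.21, adjusted p = 0.36). Lipa, the lysosomal acid lipase, was called higher in LN females (0.60 ± 0.17, adjusted p = 0.39) and Ces2a lower in NL males (-0.72 ± 0.24, adjusted p = 0.27). Of 9 cofactors and controls of lipolysis, Fabp4, the fatty acid carrier of adipocytes and endothelium, was called lower in NL females (-0.84 ± 0.41, adjusted p = 0.52). In the interaction of sperm and seminal plasma diet, 1 of the 15 lipases was called lower and 1 of the 9 cofactors and controls higher.

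Against NN, regulators and targets were called within 1 sex only. In the interaction of sperm and seminal plasma diet, 1 of 11 transcription factors was called higher and 1 of 12 PPARA targets lower. Calls in the sex difference of the diet effect are not listed for these genes. Of 11 transcription factors, Ppara, the fatty acid receptor, was called higher in NL females (0.67 ± 0.31, adjusted p = 0.51). Ppargc1a, a coactivator of fasting metabolism, and Mlxipl, the carbohydrate response factor, were called lower in LN males (-0.87 ± 0.21, adjusted p = 0.11, and -0.83 ± 0.28, adjusted p = 0.25). Of 12 targets of PPARA, Cyp4a14, Cyp4a10 and Acot1 were called lower in NL males (-2.01 ± 0.63, -1.08 ± 0.43 and -1.28 ± 0.56, adjusted p of 0.25, 0.34 and 0.38), and Angptl4, an inhibitor of lipoprotein lipase, was called higher in LN females (1.46 ± 0.42, adjusted p = 0.40) and in NL females (0.91 ± 0.42, adjusted p = 0.50). Of 8 genes that follow feeding and fasting, Pck1 and Igfbp1 were called higher in LN females (0.80 ± 0.35 and 1.98 ± 0.78, adjusted p of 0.58 and 0.54), Pck1 in NL females (0.79 ± 0.35, adjusted p = 0.49) and Fasn, the fatty acid synthase, in NL males (0.73 ± 0.32, adjusted p = 0.39). Of 6 Kupffer cell markers, 3 were called higher in NL males, the group of the Cyp4a14 difference, and the part of those cells was not tested. None of these diet differences passed an adjusted p of 0.05.

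Between the sexes, 5 of 15 other lipases, 4 of 12 PPARA targets, 3 of 10 formation and assembly genes, 1 of 11 transcription factors and 1 of 8 feeding genes passed an adjusted p of 0.05 with 29 arrays, beside 5.65% of all probe sets. Cd36, a fatty acid uptake receptor, was lower in males by a difference of -1.07 ± 0.14 (adjusted p = 2.67e-06), as was Cyp4a14 (-1.67 ± 0.31, adjusted p = 0.000644). Fitm1, which promotes droplet formation, was higher in males (1.31 ± 0.17, adjusted p = 4.14e-06), and Tm6sf2, which takes part in lipoprotein loading, was lower (-0.63 ± 0.10, adjusted p = 5.55e-05). The median sex difference of the PPARA targets was -0.44, against 0.12 for the 10 members and 0.01 for all probe sets.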

How the data were processed

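Liver RNA of 30 offspring was hybridised to Clariom S mouse arrays. The authors deposited 1 table of log2 signals per probe set, processed in Partek Genomics Suite. The background and normalization steps are not given in the sources used here. In all, the table held 29129 rows, from which 6923 controls were dropped. Symbols came from the platform annotation, updated through RefSeq (GRCm38.p6), and 19572 of 22206 probe sets had 1 symbol.

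Groups were compared with limma 3.58.1 in R 4.3.3 (lmFit, eBayes, two-sided), in 4 diet groups for both sexes and 8 diet and sex groups otherwise, with Benjamini-Hochberg adjustment over all tested probe sets. Calls used an unadjusted p of 0.05 with a fold over 1.5, or an adjusted p of 0.05. Single differences were also tested with exact permutation tests (200 computed) or 100000 resamples (60 computed), whose p-values are not adjusted for that number; the limma p beside each is. Alternatives were array exclusion, normalization, filters, weights, a plain analysis of variance and the replicate block.

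Members and lists were chosen with earlier results of these data known, and the 26-array set after seeing the muscle markers. All 10 members are named; from other lists, up to 4 called genes with the smallest p. The number of arrays limits precision. The fits were tested on simulated data.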

Additional observations from a re-analysis of the deposited data

Results flagged for a closer look

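In each diet group, and in each group of 1 sex with 4 or more arrays, the highest and lowest array of every member was compared with its neighbours by Dixon's criterion. Of 90 group and gene combinations tested, 18 held an array set apart, and chance alone sets apart about 1 in 20.

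NL replicate 6 accounted for 7 of the 18. On it Plin2 was 8.38, Cideb 9.30 (among all NL arrays and among NL males), Pnpla2 6.83 (likewise in both), and Lipe 5.09, all lowest, while Cidea was 5.11 and highest. The hybridisation controls of that array were the lowest of all 30.

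NN replicate 3, with the most muscle transcripts, was the highest NN array for Plin5 at 8.08 and for G0s2 at 9.29. LL replicate 4 was the lowest LL array for Plin2 at 9.77 and the lowest LL female for Mgll at 7.50. LN replicate 7 was the highest LN male for Plin4 at 6.32, and for Cidec at 5.71 it was the highest among LN arrays and among LN males.

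Cidea was 4.78 in LL replicate 7, the highest LL array. Cideb was 11.95 in LN replicate 6, the highest LN array. Among males, Cidec was highest of NN in replicate 4 at 5.64 and lowest of NL in replicate 4 at 4.33.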

How the results depend on the processing

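Counts of members called (unadjusted p of 0.05 with a fold over 1.5) were small. With no minimum fold, the count was 1 for NL against NN, 2 for NL against LN, 2 for sperm diet, 1 for seminal plasma diet and 2 for sex, each 0 with the fold. Centring each array on its median gave 1 for NL against LN. The 2 calls in NL males became 0 without NL replicate 6 and LL replicate 1, under the methods' analysis of variance, quantile normalization or array weights, with the compared groups only, and with 26 arrays. The G0s2 interaction call became 0 under the analysis of variance, quantile normalization, array weights and 26 arrays. Array weights gave 0 in LN males, 1 for sex and 1 for the sex difference in LN. The sex difference in LL had 1 call without both arrays and with the compared groups only. With 26 arrays (chosen after seeing the data) the counts were 2 in LL females, 1 in NL females, 1 for sex and 1 for each sex difference (LL, NL and LN).

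Leaving out 1 array at a time gave 0 to 4 calls in LL females (4 without NN replicate 3) and in NL males (4 without NL replicate 5 or 7), and 0 to 1 in NL females, LN females, LL males, LN males, NL against LN, the interaction, sex and the 3 sex differences. No share of all probe sets is given beside these counts, so they are not read as results about the members. In those fits the adjusted p passed 0.05 in NL males for Plin2 without NL replicate 5 (0.0495) and, without NL replicate 7, for Plin2 (0.0358), Pnpla2 (0.0378) and Lipe (0.0293), all with the weak array kept.

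The replicate numbers did not pair the arrays: residuals of same-numbered arrays correlated at -0.21 to 0.19, over 0.1 in 6 of 39 pairs. With the number as a block, the interaction had 0 calls, sex 2 and the sex difference in NL 1, and the sex difference of Mgll turned to 0.11, while Pnpla2 in NL males (-0.80, adjusted p = 0.16) was no longer among the members called. Numbers 1 to 3 are females in every group and 4 and 5 are females in LL only, so that fit takes the sex difference from numbers 4 and 5 alone. A filter on low signal removed Cidea. Litter was not recorded in the labels, and the number of arrays limits every interval.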

Other observations

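NN replicate 5, a male, carried transcripts of exocrine pancreas: the mean of 7 pancreas markers was 8.96, against 4.63 to 5.16 on the other arrays except NL replicate 6 (6.11). The 10 members lay within the range of the other arrays there, with Plin2 at 10.71, Pnpla2 at 9.78 and Mgll at 8.31. Of these markers, 4 were called lower in LL males than in NN males, the group that holds that array.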
